A study of Mus musculus with 2 samples.

Results

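The genes described here encode the chaperones, disulfide isomerases, translocation channel and quality-control proteins that fold secreted and membrane proteins in the endoplasmic reticulum (ER). They form a list of 34 mouse genes, and every probe that the platform annotation assigns to one of them was taken from an Illumina bead array. The annotation named 30 of the 34 genes, with 42 probes, among 16593 named genes and 25697 probes in all. It gave no probe to Dnajb11, Sdf2l1, Ppib or Atf6. A probe counted as detected where its signal exceeded that of the negative-control beads at a detection p under 0.01 on at least 1 array. By this limit 25 of the genes were detected, with 31 probes, each of them on both arrays, among 8651 detected genes.

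Total RNA of mouse fibroblasts was compared in 2 conditions, control cells and cells kept on gold nanoparticles (AuNPs) during exposure to an electromagnetic field (EMF). Each condition had 1 array and no replicate, so no difference below carries a replicate error or a test, and genes are called by size alone. The labels give neither the strain, age or line of the fibroblasts nor the strength and length of the exposure, and no array held AuNPs alone or EMF alone. By its title, the series belongs to a study of reprogramming cells into dopamine neurons with an electromagnetic field.

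Proteins bound for secretion enter the ER through the Sec61 channel, where the Hsp70-type chaperone BiP, the lectin chaperones and the disulfide isomerases help them fold. Proteins that stay misfolded are passed back to the cytosol and degraded, a route called ER-associated degradation. A load of unfolded protein is sensed by IRE1, ATF6 and PERK in the ER membrane, and the transcription factors XBP1 and ATF6 then raise many of the genes of this list. Fibroblasts secrete collagen and other matrix proteins and carry a large folding machinery.

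Many genes of this response carry an ER stress response element (ERSE) near their start, the binding site of ATF6 with the general factor NF-Y. It was searched as CCAAT, 9 bases of any kind and CCACG, on both strands, in the RefSeq window of 300 bases, 250 before and 50 after each annotated start (GRCm38.p6). The window was at hand for 28 of the 34 genes, and 8 of them held the element: Hspa5, Hsp90b1, Calr, Canx, Dnajc3, Pdia6, Creld2 and Syvn1. This is 28.6% of the 28, against 0.137% of all 27025 genes with a window, or 0.119% of their 32851 windows. Many of the listed genes are known members of this response, so the share is a description and no test of the list. A shorter form, ERSE-II (ATTGG, 1 base of any kind and CCACG, both strands), was found for Herpud1 and Dnajb11, and in 0.0365% of all windows. The element bound by XBP1 (searched as TGACGTGG, both strands) was found in 1 of the windows of Txndc5 and in 0.676% of all windows. The last 5 letters shared by both ERSE forms, CCACG, were present in 32.8% of all windows. Windows were not found for Atf6, Derl1, Hyou1, Manf, Sec61a1 and Ssr2.

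The elements themselves are printed 5′ to 3′ on the strand that reads CCAAT first, with the fixed letters in capitals. They were found in 8 of the 28 genes with a window, so most of these genes do not share them. The distance of the element's first base in the window from the start is given with each value further on, for exact matches only.
Hspa5: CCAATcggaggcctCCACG
Hsp90b1, distal: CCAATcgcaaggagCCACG
Hsp90b1, proximal: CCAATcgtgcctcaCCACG
Calr: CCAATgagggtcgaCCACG
Canx: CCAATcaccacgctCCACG
Dnajc3: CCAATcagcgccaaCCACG
Pdia6: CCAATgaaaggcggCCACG
Creld2: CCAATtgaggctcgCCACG
Syvn1: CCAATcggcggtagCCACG

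The 250 bases before the start are printed for 4 genes that bracket the results, on the strand of the gene, with each ERSE or ERSE-II in capitals. Hspa5 had the largest difference of the list and Creld2, by a narrow margin, the lowest as reported. Hsp90b1 is the one gene of the list with a pair of exact matches to ERSE, and Herpud1 the detected gene with ERSE-II. Copies that depart from the searched letters are not marked. Hspa5 lies on the plus strand at chr2:34771840-34772089, Hsp90b1 on the minus strand at chr10:86705445-86705694, Creld2 on the plus strand at chr15:88819396-88819645 and Herpud1 on the plus strand at chr8:94386179-94386428. In Creld2, and at the proximal site of Hsp90b1, the capitals show the reverse complement of the element.
Hspa5: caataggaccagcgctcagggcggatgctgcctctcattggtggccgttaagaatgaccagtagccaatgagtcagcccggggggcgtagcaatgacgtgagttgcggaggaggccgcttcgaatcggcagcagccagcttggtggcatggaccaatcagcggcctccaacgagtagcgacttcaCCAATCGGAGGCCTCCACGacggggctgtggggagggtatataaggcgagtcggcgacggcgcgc
Hsp90b1: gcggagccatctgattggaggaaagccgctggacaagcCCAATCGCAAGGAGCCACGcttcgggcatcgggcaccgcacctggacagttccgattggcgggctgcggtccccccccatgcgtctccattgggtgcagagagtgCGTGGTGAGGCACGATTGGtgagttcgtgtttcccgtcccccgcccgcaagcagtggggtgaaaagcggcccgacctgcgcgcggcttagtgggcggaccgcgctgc
Creld2: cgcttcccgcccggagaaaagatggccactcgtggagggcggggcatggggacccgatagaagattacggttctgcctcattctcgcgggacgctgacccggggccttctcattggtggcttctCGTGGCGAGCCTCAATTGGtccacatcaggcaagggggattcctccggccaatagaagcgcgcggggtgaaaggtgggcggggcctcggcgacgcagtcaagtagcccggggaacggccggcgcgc
Herpud1: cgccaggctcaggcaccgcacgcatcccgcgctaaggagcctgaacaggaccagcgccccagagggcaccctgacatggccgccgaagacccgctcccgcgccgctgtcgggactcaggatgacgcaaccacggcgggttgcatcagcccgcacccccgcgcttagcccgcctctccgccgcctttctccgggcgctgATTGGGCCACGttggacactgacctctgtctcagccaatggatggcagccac

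The ER folding genes had nearly the same signal on both arrays. Differences below are EMF and AuNPs minus control, on the log2 scale of background-corrected, quantile normalized signal, for the brightest detected probe of each gene. Of the 25 detected genes, 24 differed by less than 1.25-fold, compared with 78.4% of all detected genes and 88.3% of those at or above the median brightness, where 20 of the 25 lie. Of these 20, all differed by less than 1.25-fold. A total of 1 gene, Hspa5, was at least 1.5-fold higher, where the share of all detected genes was 3.34%, and 0 were at least 1.5-fold lower, where it was 2.91%. No gene of the list reached 2-fold in either direction, against 0.52% of all detected genes higher and 0.485% lower. A total of 14 lay above 0, 10 below and 1 at 0, while 55.8% of all detected genes lay above 0. The differences ran from -0.29 to 0.60 with a median of 0.04, and the median of all detected genes was 0.03. In RNA of whole cultures, fewer cells of a type and less RNA per cell cannot be told apart.

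**Figure D1:**
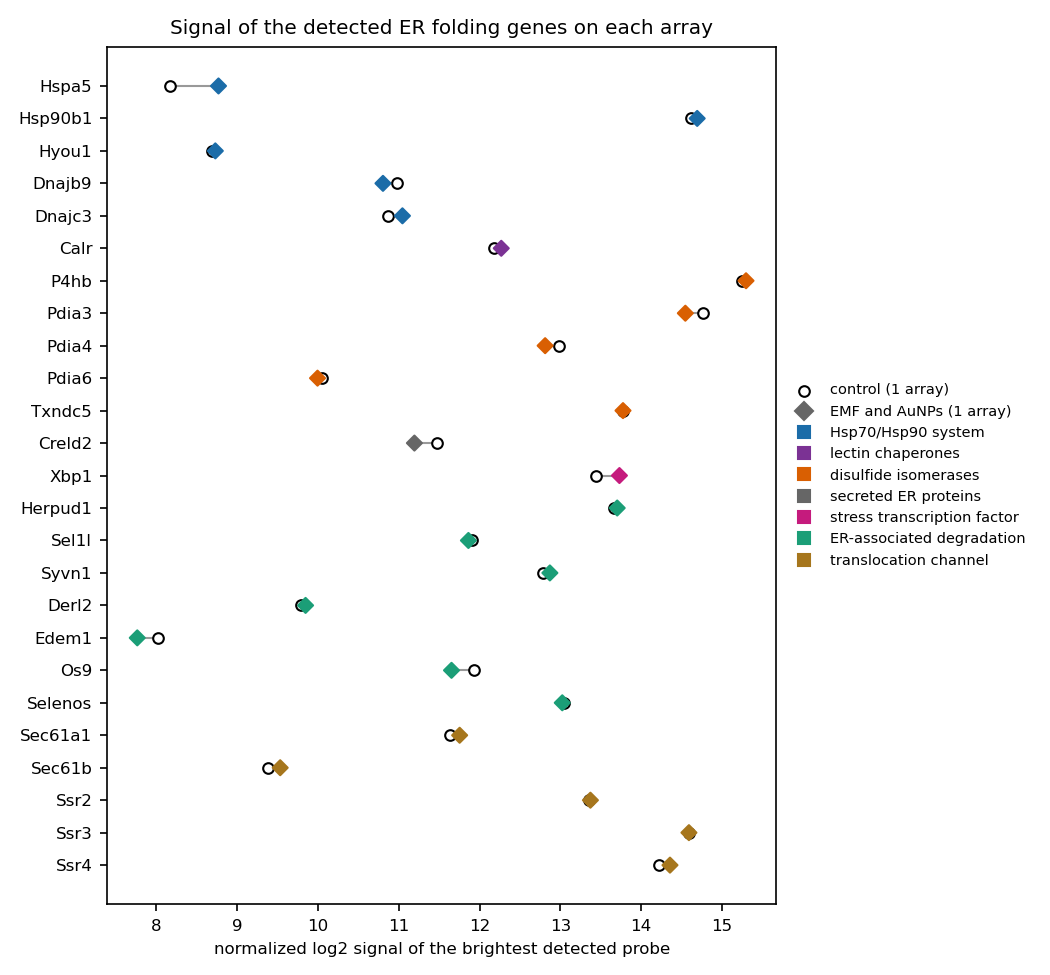
Normalized log2 signal (horizontal axis) of the brightest detected probe of each of the 25 detected ER folding genes, with an open circle for the control array and a diamond, coloured by role, for the EMF and AuNP array. The symbols of most genes nearly coincide, and Hspa5, at 8.17 and 8.77, has the widest gap; probes of different genes are not comparable in height.

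To judge the size of single differences, genes detected on both arrays were divided by brightness into 20 bins of equal number, and the robust SD of the differences (from the median absolute deviation) was computed in each bin; it is called the yardstick below. For the 25 genes it ran from 0.14 for the brightest to 0.32 for the dim ones. True changes and noise both enter it, so it is no replicate error. A total of 6 of the 25 genes differed by more than their own yardstick, against 33.9% of all genes detected on both arrays, and 0 by more than 2 times it, against 8.12%. These 6 were Hspa5 and Xbp1, which were higher, and Pdia3, Pdia4, Creld2 and Os9, which were lower.

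Among the Hsp70 and Hsp90 chaperones, Hspa5, which encodes BiP, the main Hsp70 of the ER and the regulator of the stress sensors, showed the largest difference. Its 1 probe had intensities of 398 (control) and 518 (EMF and AuNPs). After normalization these were log2 signals of 8.17 and 8.77, a difference of 0.60 or 1.52-fold, against a yardstick of 0.32. The probe is among the dimmer ones of the list, and the value lies just past the 1.5-fold limit. It passed that limit only with the background correction and normalization used here. The other 5 corrections and normalizations tried, of which the one without background correction is also the form of the deposited log2 values, gave between 0.47 and 0.57, all higher with EMF and AuNPs and all under 1.5-fold. The gene's exact match to ERSE begins 65 bases before the start. Copies that depart from the searched letters are not counted in this.

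The other members of the Hsp70 and Hsp90 system did not share the size of that difference. Hsp90b1, the ER Hsp90 known as GRP94, read 25327 in control and 26405 with EMF and AuNPs and differed by 0.07, although its window holds an ERSE 212 and another 107 bases before the start. Hyou1, a large Hsp70-related nucleotide exchange factor for BiP, read 528 and 505 and differed by 0.04 after normalization. Co-chaperones of the J-domain family, which stimulate the ATPase of BiP, lay on either side of 0. Dnajc3, known as p58IPK, read 1992 and 2186 and differed by 0.18, with its ERSE beginning 105 bases before the start. Dnajb9, known as ERdj4, read 2151 and 1859 and differed by -0.18, and its other probe was not detected. Both stayed within the yardstick of 0.21 for genes of their brightness.

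Of the lectin chaperones, which hold glycoproteins through their trimmed sugar chains, Calr (calreticulin) read 4784 in control and 4997 with EMF and AuNPs, a difference of 0.09. Its ERSE begins 162 bases before the start. Canx, the membrane-bound calnexin, was not detected, with intensities of 105 and 114 and detection p-values of 0.619 and 0.396 on its 1 probe. An undetected probe gives no measure of the gene here, in either condition.

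The disulfide isomerases, which form and reshuffle the disulfide bonds of new proteins, ran from -0.21 to 0.05. A total of 4 of the 5 had a negative difference, where 44% of all detected genes did. Their median was -0.05, and none passed 1.5-fold. P4hb, the archetypal isomerase PDI and also the beta subunit of collagen prolyl 4-hydroxylase, read 39285 in control and 40698 with EMF and AuNPs and differed by 0.05. Pdia3, known as ERp57 and the partner of calnexin and calreticulin, read 28209 and 23952 and differed by -0.21, or 1.16-fold lower, against a yardstick of 0.14. Pdia4, known as ERp72, read 8178 and 7247 and differed by -0.17, at its yardstick of 0.17. Both probes were thus lower with EMF and AuNPs, by less than 1.25-fold. Pdia6, which holds an ERSE 98 bases before its start, read 1183 and 1090 and differed by -0.05. Txndc5 read 14282 and 14093 and differed by -0.01, and by 0.06 after median centring, so its side of 0 depends on the scaling.

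Of the small ER proteins that are secreted under stress, Creld2 had, by a narrow margin over Os9, the lowest difference of the list as reported. Edem1 was the lowest with median centring and cyclic loess, and Os9 with the mean of detected probes. The brighter probe of Creld2 read 2993 in control and 2412 with EMF and AuNPs, a difference of -0.29 or 1.22-fold lower, against a yardstick of 0.20. Its second probe went the same way by less, from 2232 to 1964, with a difference of -0.15. The ERSE of this gene begins 126 bases before its start. Manf, a secreted protein that binds BiP, was not detected, with intensities of 119 and 110.

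**Figure D2:**
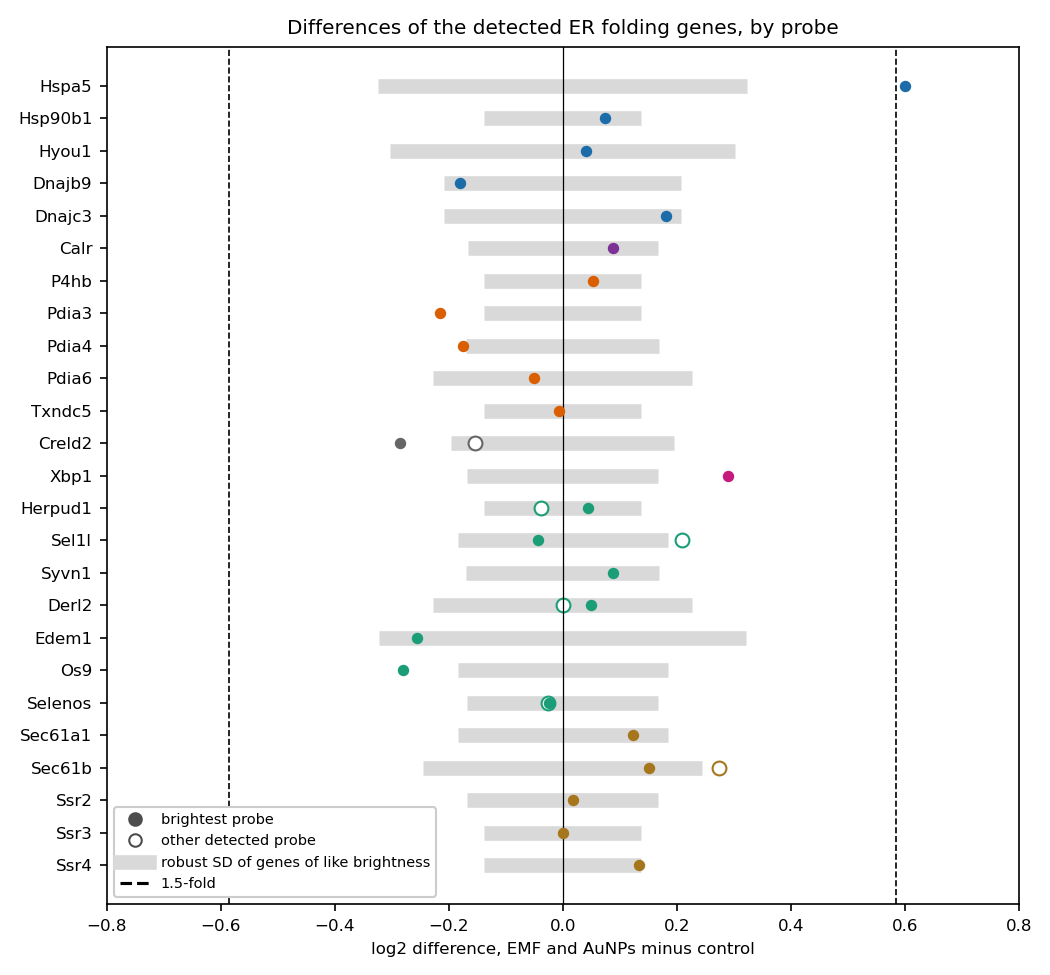
Log2 difference, EMF and AuNPs minus control (horizontal axis), of each detected probe of the 25 ER folding genes, with filled points for the brightest probe and open circles for other detected probes. Grey bars span 1 robust SD of genes of like brightness either side of 0 and dashed lines mark 1.5-fold; Hspa5 at 0.60 is the only point past a dashed line.

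Among the regulators of the unfolded protein response, Xbp1, the transcription factor made active when IRE1 splices its mRNA, was higher with EMF and AuNPs. Its 1 probe read 11268 in control and 13759 with EMF and AuNPs, a difference of 0.29 or 1.22-fold, against a yardstick of 0.17. Whether this probe separates the spliced from the unspliced mRNA was not tested. Its value ran from 0.29 to 0.37 over all 11 settings, under 1.5-fold in each. Ern1, which encodes the sensor IRE1 alpha, was not detected, with intensities of 111 on each array and detection p-values of 0.470 and 0.457.

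Genes of ER-associated degradation were divided. Of the 7 detected, 3 lay above 0 and 4 below, with a median of -0.02, and none passed 1.5-fold. With median centring, Selenos moved above 0. Os9, a lectin that recognises glycoproteins to be degraded, was the lowest of them, with 4069 in control and 3282 with EMF and AuNPs, a difference of -0.28 or 1.21-fold lower against a yardstick of 0.18. Edem1, which helps to trim mannose from misfolded glycoproteins, read 371 and 305 and differed by -0.26, within the yardstick of 0.32 for so dim a probe. The ubiquitin ligase Syvn1, known as HRD1, read 7178 and 7563 and differed by 0.09. Its ERSE begins 44 bases before the start, the shortest distance among the 9 elements. Sel1l, the adaptor of this ligase, read 3993 and 3777 and differed by -0.04, while its other detected probe differed by 0.21. Its probes therefore disagreed in direction, but the annotation assigns them to different transcripts, so they need not measure the same RNA.

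The remaining genes of this route lay close to 0. Herpud1, a membrane protein that organises the ligase complex and is a well-known target of the stress response, read 13073 in control and 13473 with EMF and AuNPs and differed by 0.04. Its second probe differed by -0.04, and its ERSE-II begins 52 bases before the start. Derl2, a membrane protein of the export channel, read 1011 and 994 and differed by 0.05 after normalization, with 0.00 on its second probe. Before normalization, both of these probes of Derl2 read lower with EMF and AuNPs. Selenos, a selenoprotein that recruits the p97 ATPase to the membrane, read 8544 and 8476 and differed by -0.02, with -0.03 on its second probe. Derl1 was not detected on any of its 3 probes, whose intensities lay between 100 and 124.

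The Sec61 channel and the translocon-associated protein (TRAP) complex, which pass new chains into the ER, had no detected member below 0, although Ssr3 moved to -0.01 with cyclic loess. Of the 5 detected genes, 4 lay above 0 and 1 at 0, where 55.8% of all detected genes lay above 0. Their median was 0.12 and their range 0.00 to 0.15, all within their yardsticks. Sec61a1, the pore-forming subunit, read 3319 in control and 3523 with EMF and AuNPs and differed by 0.12. Sec61b, a small subunit of the channel, read 787 and 818 and differed by 0.15, and its other detected probe by 0.27. Ssr4, a TRAP subunit, read 19219 and 21077 and differed by 0.13. Its fellow subunits Ssr2 and Ssr3 differed by 0.02 and 0.00, with 24812 and 24819 for Ssr3, the closest agreement of the list. Ssr1 was not detected, with intensities of 92.1 and 110.

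**Figure D3:**
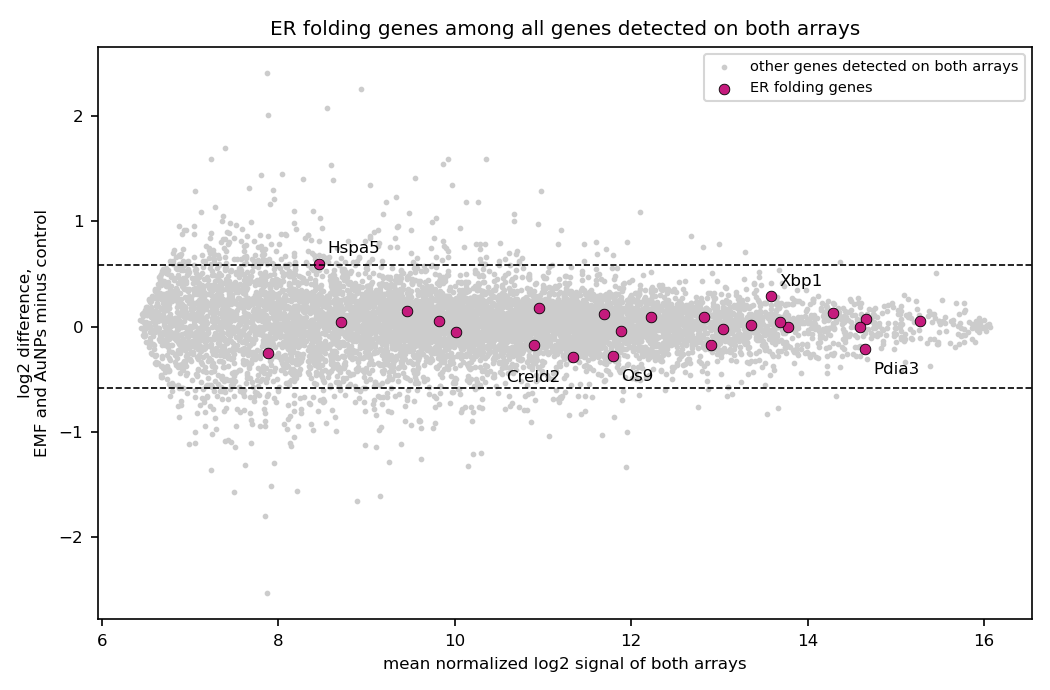
Log2 difference, EMF and AuNPs minus control (vertical axis), against the mean normalized log2 signal of both arrays (horizontal axis), with grey points for genes detected on both arrays and coloured points for the 25 ER folding genes; dashed lines mark 1.5-fold. The coloured points run through the middle of the cloud from -0.29 to 0.60, and the cloud is wider for dim genes than for bright ones.

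Genes with and without an exact match to ERSE or ERSE-II in their window can be set side by side as a description. Of the 10 genes with ERSE or ERSE-II, 8 were detected, with differences from -0.29 to 0.60 and a median of 0.08, 6 above 0 and 2 below. Without Hspa5 the other 7 had a median of 0.07 and ran from -0.29 to 0.18. Of the 18 genes with a window and neither form, 14 were detected, with differences from -0.28 to 0.29 and a median of -0.02. Of these 14, 5 lay above 0, 8 below and 1 at 0. The ranges with and without an exact match overlap almost completely apart from Hspa5. Another 10 detected genes outside the list hold one of the forms, and they ran from -0.24 to 0.55 with a median of -0.06, 5 above 0 and 5 below. When 1 of the 10 fixed letters of ERSE was allowed to differ, 13 of the 28 genes and 1.5% of all windows held it. Derl2, Pdia3, Pdia4 and Sel1l are among these 13, though they count above as genes with neither form. The division thus rests on the exact letters.

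A gene measured by several probes gives a check of the hybridisation, though not of the culture. Of the 25 genes, 6 had a second detected probe and 19 rested on 1 probe. The probes of Creld2, Sec61b, Derl2 and Selenos went the same way after normalization. For Derl2 this was by only 0.00 on the second probe, and for Selenos by -0.03 and -0.02. Those of Sel1l, which are annotated to different transcripts, and those of Herpud1 fell on opposite sides of 0. None of the 6 second probes passed 1.5-fold.

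The rest of the secretory pathway was examined with 7 lists holding 119 other genes, of which 110 were named on the array and 96 detected. Of these 96, by the brightest probe of each, 0 were at least 1.5-fold higher and 4 at least 1.5-fold lower, with a median of -0.01. The shares of all detected genes were 3.34% higher and 2.91% lower, as above. The 4 lower genes were Srp54a, Sec23a, Tmed2 and Ube2j2, the last by a bound. In export from the ER, of 20 detected genes 10 lay above 0 and 10 below. Sec23a, a coat protein of the vesicles that leave the ER, read 1916 in control and 1228 with EMF and AuNPs, a difference of -0.63 or 1.55-fold lower against a yardstick of 0.20. Tmed2, a cargo receptor of these vesicles, read 824 and 528 and differed by -0.66 or 1.58-fold lower, but by -0.56 without background correction, under the limit. In both genes the control array was the higher, on 1 probe each.

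Among 15 detected genes of targeting, translocation and signal peptide removal, 8 lay above 0 and 7 below. Srp54a, which encodes the subunit of the signal recognition particle that binds signal sequences, read 2199 in control and 1319 with EMF and AuNPs, a difference of -0.73 or 1.66-fold lower, and stayed past 1.5-fold under all 11 settings, as did Sec23a. The mouse genome holds near-identical copies of this gene, so the assignment to Srp54a is uncertain. Srp19, another subunit of the particle, differed by -0.55, and by -0.59 to -0.43 over the settings, past 1.5-fold in 2 of them. The differences of this list thus spread wider than those of the channel itself, from -0.73 to 0.50.

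Among 11 detected regulators of the stress response, none passed 1.5-fold, with 5 above 0 and 6 below. Atf4, the transcription factor made after PERK acts, read 4554 in control and 3403 with EMF and AuNPs and differed by -0.40 against a yardstick of 0.18. Creb3l2, a membrane-bound factor related to ATF6, read 1236 and 1567 and differed by 0.43, with 0.39 on its second probe. These regulators therefore lay on opposite sides of 0, as Hspa5 and Creld2 did.

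In the oxidoreductase list, 4 of 12 detected genes lay above 0 and 8 below, and none passed 1.5-fold. Of all detected genes, 44% lay below 0. Pdia5, a further disulfide isomerase, read 4888 and 3709 and differed by -0.38, while its 2 other detected probes differed by -0.45 and 0.18. Qsox1, a secreted sulfhydryl oxidase, read 369 and 414 and differed by 0.35. Among 13 detected co-chaperones and prolyl isomerases 9 lay below 0, with Cnpy3, a co-factor of GRP94, at -0.42 and the isomerase Fkbp9 at -0.26.

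Among 13 other genes of ER-associated degradation, 5 lay above 0 and 8 below by the brightest probe. Of those above 0, Edem2 differed by 0.14 on that probe, but by -1.11 and 0.40 on others detected on both arrays. Herpud2 differed by 0.02 on that probe, but by -0.07, -0.37 and -0.75 on its others. The directions of Edem2 and Herpud2 are therefore not settled. Ube2j1, a ubiquitin-conjugating enzyme of the ER membrane, differed by 0.46. Ube2j2, its relative, was detected in control alone, with intensities of 249 against 170.0, and on the background-corrected scale was at least 1.66-fold lower. This bound, which sets the control value against the lowest detected value of the other array, rests on the background correction: without it the log2 bound was -0.39, and 1.5-fold was passed in 6 of the 10 settings that gave a value. Erlin2, a membrane protein that recognises substrates for degradation, stood at -0.28 by the brightest probe but at 0.90 by a second one detected on both arrays, so its direction is not settled. By the brightest probe, the 12 detected genes of N-glycosylation and glycan trimming were the tightest of the lists, with all 12 within 1.25-fold. They ran from -0.20 for the mannosidase Man1b1 to 0.12 for Krtcap2, a subunit of the oligosaccharyltransferase. Ganab, at 0 by that probe, differed by -0.75 on another probe detected on both arrays and by 0.08 on a further one, so its probes disagreed.

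**Figure D4:**
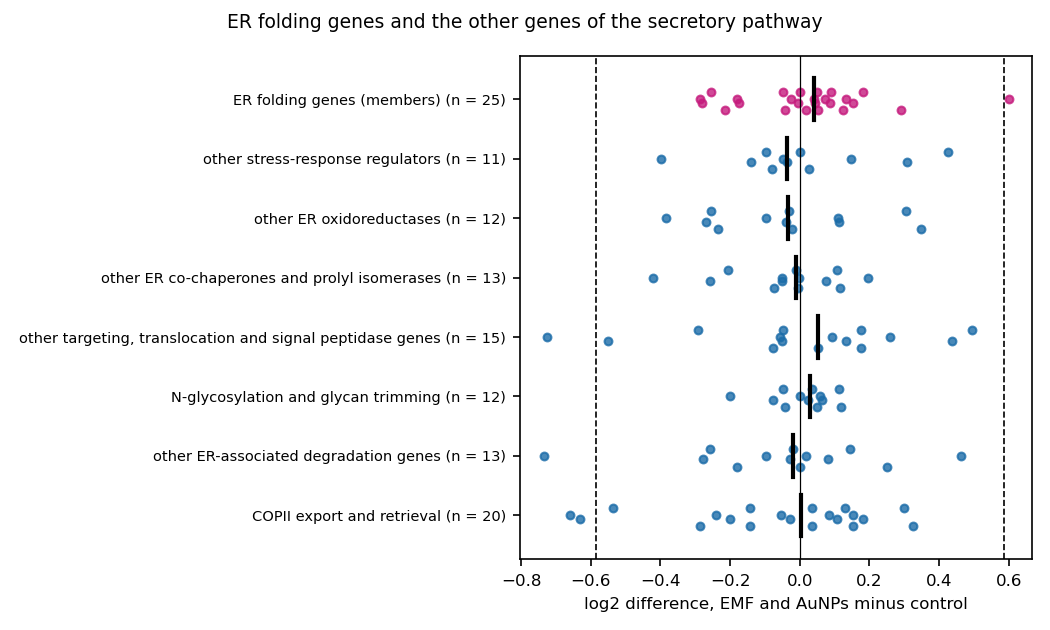
Log2 difference, EMF and AuNPs minus control (horizontal axis), of each detected gene of the ER folding list and of 7 other lists of the secretory pathway, with a black bar at each median and dashed lines at 1.5-fold. The medians lie between -0.04 and 0.05, and the 4 points past the left dashed line are Srp54a, Ube2j2, Tmed2 and Sec23a.

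The cultures were checked against markers of fibroblasts and of other cells. All 12 fibroblast markers were detected, and their summed intensity was 202864 with EMF and AuNPs against 224361 in control, a ratio of 0.904. By the brightest probe, 2 lay above 0 and 10 below, with a median difference of -0.12, where 44% of all detected genes lay below 0. Col3a1 differed by -0.15 on that probe but by 0.66 on its other. Fbln2 differed by -0.28, and by -1.54 and -0.15 on its others, and Dcn by -0.07 and, on its other, -0.41. Of the macrophage and leukocyte markers, 7 of the 8 on the array were detected, 5 of them above 0 and 2 below, with a median difference of 0.06. Their summed intensity was 110503 in control and 109594 with EMF and AuNPs. Lyz2, at 46631 and 42568, and Laptm5, at 43796 and 45724, weigh most in it, and both were bright on each array. The signs are those of the brightest probes. Adgre1 differed by 0.06 on that probe, and by 0.13 and -1.38 on its other detected probes. Lyz2 differed by -0.11 on that probe, and by 0.15 and 0.75 on its others. By the brightest probe, the highest difference was that of Cd14 at 0.24. The pan-leukocyte gene Ptprc was detected in control alone, at 227 against 158, and Itgam was the one not detected. Of the 7 plasma cell and B cell markers, only Sdc1 was detected, which other cells use too. Epithelial and endothelial markers were detected for 2 of 5 genes each, with summed intensities of 706 and 661 for the epithelial and 464 and 424 for the endothelial ones. Each pair was split, with Krt8 at 0.54 and Krt14 at -0.18, and Vwf at 0.08 and Tek at -0.27. The part of these cells in the values of the ER folding genes was not tested. On the whole array, the median intensity was 165 in control and 162 with EMF and AuNPs, and 46.7% and 46.6% of probes were detected.

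**Figure D5:**
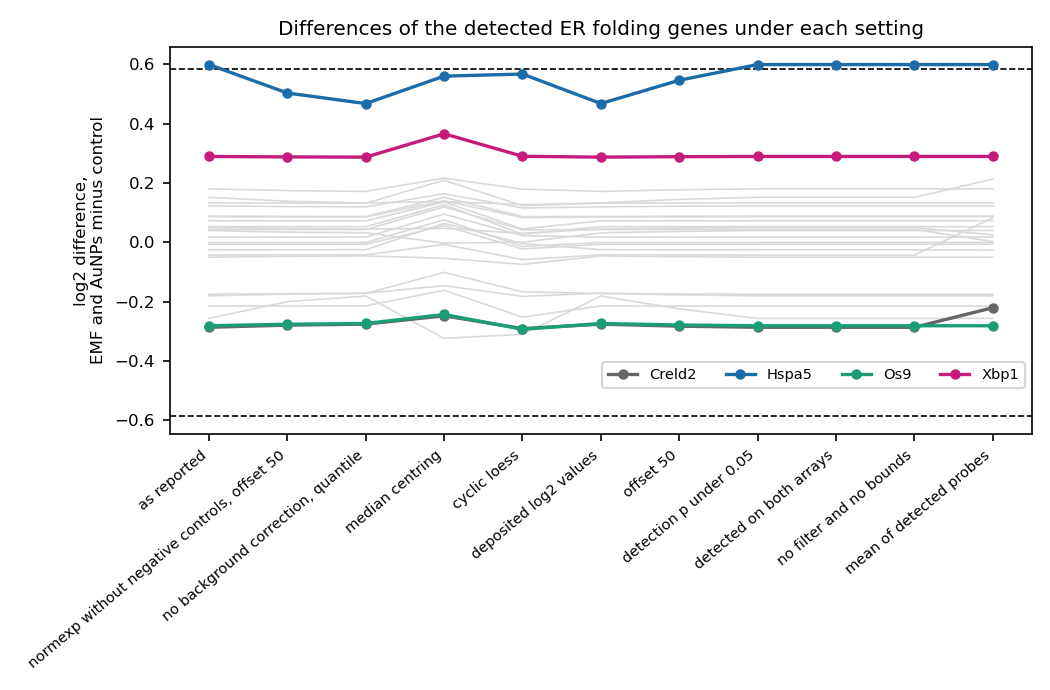
Log2 difference, EMF and AuNPs minus control (vertical axis), of each of the 25 ER folding genes under 11 settings (horizontal axis), with 4 genes coloured and dashed lines at 1.5-fold. Hspa5 moves between 0.47 and 0.60 and crosses the upper dashed line, Xbp1 stays between 0.29 and 0.37, and Creld2 and Os9 stay below 0.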

How the data were processed

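Total RNA was extracted with Trizol and labelled with biotin, per the labels' protocols, and the submitters' processing notes list GenomeStudio 2011.1. For each probe the authors deposited an intensity on a linear scale, not normalized between arrays, with a detection p-value in steps of 1 in 798. The authors also deposited log2 values, which equalled the quantile normalized log2 intensity without background correction to within 4.9999e-07, so their scale and columns are settled. Other upstream steps are not given in the sources used here.

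Background correction and quantile normalization used neqc of limma 3.58.1 in R 4.3.3 (offset 16, negative controls taken from the detection p-values). The platform annotation gave 1 gene for 23978 probes and none for 1719. The brightest probe stood for a gene, among those detected at p under 0.01 on at least 1 array. A gene detected on 1 array enters with a bound. With 1 array per condition there is no test; precision is limited by the 2 arrays. All 34 members are named, and of each other list the 2 genes detected on both arrays with the largest difference, with 1 more, Ube2j2, named after its value was seen because it passed 1.5-fold. The members and lists were chosen with earlier results of these data known. The steps were tested on simulated arrays with planted changes of 2-fold or more, in probes well above background. Smaller changes and dim probes, such as that of Hspa5, were not covered. Promoter windows are from RefSeq (GRCm38.p6), and no probe coordinates are given since no build is named with the array.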

Additional observations from a re-analysis of the deposited data

How the results depend on the processing

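Each value was recomputed under 10 alternatives. The count of ER folding genes at least 1.5-fold higher was 1 as reported and 0 under normexp without negative controls, without background correction, with the deposited log2 values, with an offset of 50, with median centring, with cyclic loess and at a limit of 2-fold. Hspa5, the gene concerned, then differed by 0.50, 0.47, 0.47, 0.55, 0.56 and 0.57 in the first 6 of these, where the deposited values repeat the setting without background correction. The count at least 1.5-fold lower was 0 under every setting, the number above 0 ran from 14 to 18 (the latter of 30 genes, with no detection filter) and the median from 0.02 to 0.08. All 250 single-gene values of the 25 genes stayed within 1 yardstick of the reported value. A total of 20 genes kept their sign in all settings, and 5 near 0 (Hyou1, Sel1l, Selenos, Ssr3 and Txndc5) did not. Alternatives for the other secretory pathway genes were added after seeing the data: the count at least 1.5-fold lower was 4 as reported and 2 to 5 otherwise, and the count higher was 0 throughout. No paired analysis was possible because each condition has 1 array. Dim probes such as those of Hspa5 and Edem1 lie nearest the background, and 9 of the 34 genes gave no value, 5 with undetected probes and 4 with no named probe.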
